A study of Mus musculus with 20 samples.

Results

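The Nanog cluster of mouse chromosome 6 holds 5 genes that lie next to each other, Apobec1, Gdf3, Dppa3, Nanog and Slc2a3. It was treated as one extended locus, from 50000 bp before the first gene to 50000 bp after the last, which spans chr6:122527792-122851640 in the build GRCm38 (324 kb). All accessible regions (peaks) listed by the study that touched this span were taken as members, which gave 57 of 102373 peaks. The peaks come from ATAC-seq, in which a transposase cuts and tags open DNA, of ZHBTc4 mouse embryonic stem (ES) cells. In ZHBTc4 cells a Tet-Off promoter drives Pou5f1, the gene of OCT4, and doxycycline (dox) shuts this expression off. Lentiviral vectors supplied OCT4 with a SNAP tag, fused either to a mitotic degron (MD-OCT4), which removes the protein at the passage from mitosis to G1, or to an inactive mutant of that degron (MD*-OCT4). All cells also carried YPet-MD, a fluorescent reporter used to sort cell cycle phases, and grew in serum with LIF and the inhibitors CHIR99021 and PD184352.

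The series has 20 libraries in 10 groups of 2 replicates. After 40 h of dox, 4 fractions of MD-OCT4 and of MD*-OCT4 cells were collected by sorting: Early G1, Late G1, S phase and Late S/G2 (16 libraries). Both lines were also measured unsorted without dox (4 libraries). Both lines were lentiviral cell populations sorted for similar SNAP and YPet levels, so each construct was represented by 1 population. The list analysed here pools the peaks of the 16 libraries with dox and gives only the position of each peak, with no count, height or value per library. It can thus show where open regions lay, but it cannot compare MD-OCT4 with MD*-OCT4 or one phase with another, no replicate error exists for any value, and nothing was tested statistically.

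Nanog encodes a homeodomain transcription factor that, with OCT4 and SOX2, sustains the pluripotent state of ES cells. Dppa3 (Stella) encodes a maternal factor that protects DNA methylation in the early embryo and marks germ cells, Gdf3 a ligand of the TGF-beta family, Apobec1 the cytidine deaminase that edits the RNA of apolipoprotein B, and Slc2a3 the glucose transporter GLUT3. Open regions in and between such genes often hold enhancers, where OCT4 and SOX2 can bind side by side on a composite sequence made of a SOX-type part and the OCT octamer.

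4 stretches of this locus are printed first, because they hold the octamer-type and CTCF-type sequences around Dppa3 and Nanog. All are from the plus strand of GRCm38, 5′ to 3′, in lower case with the matches in capitals. The peak upstream of Dppa3 (first 300 bases, chr6:122624574-122624873) was the only member with an OCT4::SOX2 match, and its capitals mark 2 OCT octamers, the second of them within the OCT4::SOX2 match. The peak nearest to the Nanog start (first 300 bases, chr6:122708970-122709269) lies in the first intron of Nanog, and its capitals mark a CTCF match. The 2 other stretches were chosen after their values were seen. The peak at chr6:122660577-122660788 was the only member with both a CTCF match (first capitals) and an octamer (second capitals). The 250 bases before the first Nanog start (chr6:122707239-122707488) touch no listed peak and are shown for their OCT4::SOX2 match.
peak upstream of Dppa3: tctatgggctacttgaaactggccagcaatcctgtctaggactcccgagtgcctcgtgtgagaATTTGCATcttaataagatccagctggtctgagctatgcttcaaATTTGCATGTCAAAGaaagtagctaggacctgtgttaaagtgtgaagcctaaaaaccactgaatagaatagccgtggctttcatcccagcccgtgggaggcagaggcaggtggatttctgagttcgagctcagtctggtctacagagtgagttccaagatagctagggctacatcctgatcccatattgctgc
peak in the first intron of Nanog: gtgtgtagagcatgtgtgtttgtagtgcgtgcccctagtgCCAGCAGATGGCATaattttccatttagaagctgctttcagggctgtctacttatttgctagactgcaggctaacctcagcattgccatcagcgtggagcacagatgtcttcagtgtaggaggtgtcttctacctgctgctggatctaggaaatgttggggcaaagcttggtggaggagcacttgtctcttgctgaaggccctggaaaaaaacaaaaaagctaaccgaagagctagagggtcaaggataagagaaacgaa
peak between Dppa3 and Nanog with OCT and CTCF matches: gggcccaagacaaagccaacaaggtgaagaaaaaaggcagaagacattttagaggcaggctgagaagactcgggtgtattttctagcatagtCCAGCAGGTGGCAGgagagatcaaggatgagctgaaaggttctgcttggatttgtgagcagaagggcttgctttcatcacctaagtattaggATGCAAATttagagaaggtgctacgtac
Nanog promoter: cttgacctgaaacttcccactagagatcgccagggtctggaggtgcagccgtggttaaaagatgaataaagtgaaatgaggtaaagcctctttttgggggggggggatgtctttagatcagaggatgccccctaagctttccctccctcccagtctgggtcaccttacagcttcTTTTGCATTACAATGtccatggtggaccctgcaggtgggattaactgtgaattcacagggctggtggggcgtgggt

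The cluster was densely filled with listed peaks. It held 1.76 peaks per 10 kb, against 0.387 over the assembled genome and 0.387 over chromosome 6. Listed peaks covered 9.65% of its bases (31255 bp), against 2.06% of the assembled genome. When the genome was divided into 8406 tiles of the same length, the median tile held 8 peaks, the fullest held 101, and 30 tiles (0.357%) held at least 57. The cluster is also rich in genes, with 7 protein-coding gene starts. In a comparison chosen after seeing the data, among the 1651 tiles with at least 5 such starts the median was 24 peaks and 23 tiles (1.39%) held at least 57. The cluster thus lay in the upper tail of tiles with many genes as well. These are descriptions of 1 list.

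**Figure D1:**
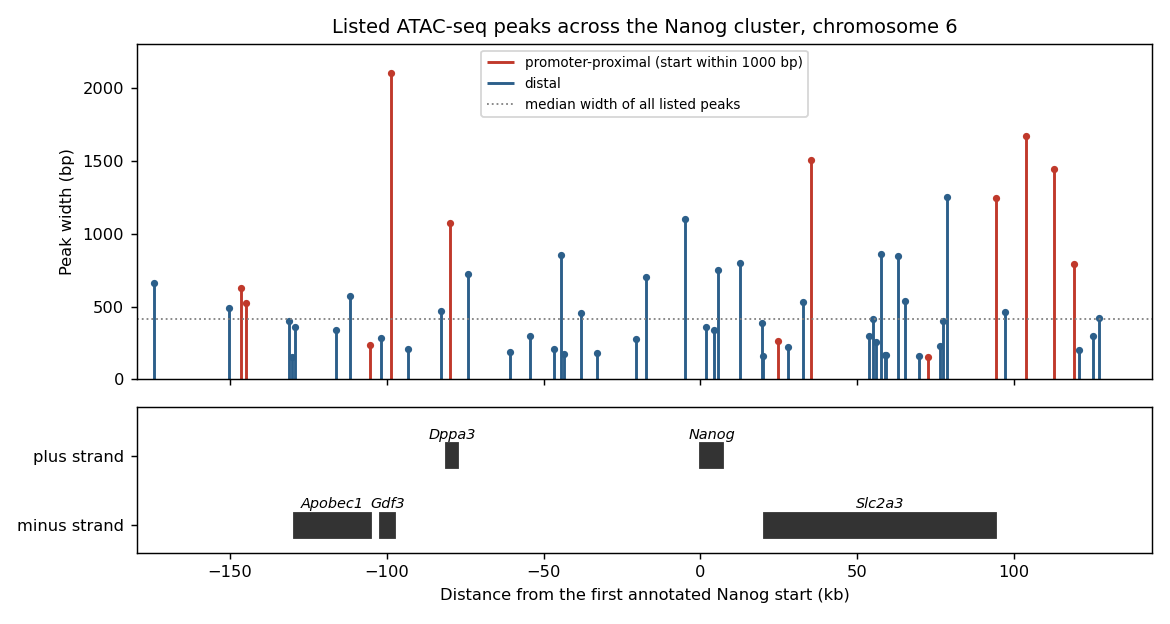
Each line is 1 of the 57 listed peaks, placed by its centre in kb from the first annotated Nanog start, with its width in bp as height; red lines are peaks within 1000 bp of an annotated transcription start and blue lines are distal. The 5 member genes are drawn to scale under the peaks. The widest peak (2101 bp) stands next to the start of Gdf3, and the run with the most peaks (13 in 25.6 kb) lies inside the long form of Slc2a3.

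Nanog (ENSMUSG00000012396.12, chr6:122707489-122714633, plus strand) had 22 listed peaks in its body or within 50000 bp. Of 21938 protein-coding genes, 6.5% had at least as many, and 1.16% had at least as many per 10 kb of window (2.05 for Nanog). It was the only one of the 5 members without a listed peak within 1000 bp of its annotated 5' end. Over all protein-coding genes, 66.1% had such a peak. The nearest peak lay 1481 bp inside the gene, in intron 1 (358 bp wide), and 1405 and 1402 bp from the other 2 annotated Nanog starts. The first peak upstream was wider (1101 bp, chr6:122702141-122703241), with its centre 4.8 kb before the start. It held a SOX match and was wider than 90.6% of all listed peaks.

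The body of Nanog, 7.14 kb long, held 3 peaks (4.2 per 10 kb). Beside the peak in intron 1, a peak of 337 bp touched exon 2 and intron 2, and a peak of 752 bp (chr6:122712830-122713581) touched intron 3 and exon 4, the last of 4 exons. In the last of these, 37.6% of its 24-base words occur more than once in the genome. The paired reads of the study were longer than such words, so this share does not measure how well the reads could be placed. For the intron 1 peak this share was 0%, and for the exon 2 peak 5.1%. The part of repeated sequence in the calling of these peaks was not tested. Within 10 kb of the Nanog start, 1 peak centre lay upstream and 3 lay downstream. Within 50 kb the counts were 8 and 10, so listed peaks stood on both sides of the gene.

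The Nanog promoter carried an OCT4::SOX2 match but no listed peak. Both RefSeq promoter windows of Nanog (250 bases before to 50 after a start, build GRCm38.p6) had 0 bases in listed peaks, and the nearest peak lay 1432 and 1356 bp away. The match, printed above in capitals within the promoter, reads CATTGTAATGCAAAA on the minus strand at chr6:122707413-122707427, has 2 mismatches, and ends 62 bp before the first start. An OCT4::SOX2 match was present in 113 of 32851 RefSeq promoter windows (0.344%). The absence of a listed peak does not show that the promoter was closed, since the list holds only regions that passed the peak caller.

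Dppa3 (ENSMUSG00000046323.8, chr6:122626410-122630272, plus strand), on the upstream side of Nanog, had 18 listed peaks within 50000 bp, and 15.2% of protein-coding genes had at least as many. A single peak lay in its body. This peak of 1076 bp (chr6:122627223-122628298) filled part of intron 1, 813 bp from the first and 470 bp from the second annotated start, and held a KLF match (GCCACGCCCT on the minus strand). The peak before the gene, 467 bp wide and 1370 bp from the nearest Dppa3 start, is the one with the OCT4::SOX2 match. That match reads CTTTGACATGCAAAT on the minus strand at chr6:122624681-122624695, with 1 mismatch. An exact octamer (ATGCAAAT) lies inside it at chr6:122624681-122624688, and a separate one lies upstream at chr6:122624637-122624644. The match is 119 bp from the centre of the peak, outside its central 200 bp. In this peak 11% of 24-base words are repeated elsewhere, and in the intron 1 peak 10.6%.

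The 77.2 kb between Dppa3 and Nanog held 11 peaks (1.42 per 10 kb), of which none lay within 1000 bp of an annotated start. They were narrow, with a median of 299 bp and a range of 172 to 1101 bp. In 6 of the 11 peaks more than 5% of 24-base words were repeated, up to 40.4% in a peak of 189 bp at chr6:122646599-122646787, which was 69.8% soft-masked (annotated as repeat). A group of 3 peaks with centres 43.5 to 46.8 kb before Nanog, singled out after its values were seen, held matches to several factors. The peak of 212 bp carried the CTCF match and the octamer printed above, that of 853 bp a SOX and a TCF match, and that of 172 bp a SOX match. The peak of 212 bp had 0% soft-masked bases and 0% repeated 24-base words.

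Gdf3 (ENSMUSG00000030117.5, chr6:122605403-122610087, minus strand) had 17 listed peaks within 50000 bp, and 18.6% of protein-coding genes had at least as many. Its annotated 5' end lay 72 bp from the widest peak of the cluster. That peak (2101 bp, chr6:122607915-122610015) touched exon 1 and intron 1 and was wider than 99.6% of all listed peaks. The only match in it was to TCF, 1024 bp from its centre. A smaller peak of 282 bp touched exon 2. It was 64.2% soft-masked and had 35.1% repeated 24-base words.

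Apobec1 (ENSMUSG00000040613.14, chr6:122577792-122602444, minus strand), adjacent to Gdf3, likewise had 17 listed peaks within 50000 bp. Its annotated 5' end lay 21 bp from a narrow peak of 233 bp (chr6:122602191-122602423), which contained 4 of its other annotated starts and no match to any of the 9 motifs. The RefSeq promoter window of Apobec1 (chr6:122602395-122602694) had 29 bases in this peak. The 3 further peaks of the gene body were 569, 360 and 336 bp wide, in intron 3, exon 8, and exon 4 with intron 3. The widest of these held a CTCF match without mismatch (CCAGCAGAGGGCAG). No peak centre fell in the 2.96 kb between Apobec1 and Gdf3.

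Slc2a3 (ENSMUSG00000003153.10, chr6:122727809-122801640, minus strand), downstream of Nanog, was the member with the most peaks. It had 34 within 50000 bp and 18 that touched its body. At least as many were found for 0.825% of protein-coding genes, and at least as many per 10 kb (1.96) for 1.85%. Its annotated body of 73832 bp makes its window the longest of the 5. Both main starts had a wide peak. The far start of the long form lay in a peak of 1241 bp (chr6:122801122-122802362, GC content 59.8%), the only member with an AP-2 match. The starts of the short forms lay in a peak of 1502 bp (chr6:122742004-122743505), which had no match.

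The long stretch between the short and far starts of Slc2a3 makes up most of its body and held most of its peaks. From the 3' end to the short start at 122742745 (14937 bp) there were 3 peak centres, and in the 58895 bp beyond it there were 14. The 14 include the peak over the short starts, whose centre lies just beyond 122742745. Of these, 13 formed 1 run with gaps of at most 10000 bp (chr6:122761090-122786719, 25.6 kb), from 53.6 to 79.2 kb after the Nanog start. The peaks of the run had a median width of 298 bp, 7 were under 300 bp, and 1 lay within 1000 bp of an annotated start. In 2 of the 13 more than 5% of 24-base words were repeated. SOX matches stood in 5 peaks of the run (6 matches), 1 of which also held the only ESRRB match of the cluster (TCAAGGTCA, 845 bp peak, 63.1 kb after the Nanog start). The run borders on 2 of the 3 longest stretches without a listed peak, of 17584 and 14402 bp.

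The gene windows overlap, so the counts per gene are not independent. Their sum is 108 for 57 peaks: 18 peaks lay in 1 window, 27 in 2 and 12 in 3. The Nanog window shared 17 peaks with that of Slc2a3, 5 with that of Dppa3, and 0 with those of Apobec1 and Gdf3. The median of the 5 members was 18 peaks, and that of all protein-coding genes was 10.0 (quartiles 4 and 15).

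**Figure D2:**
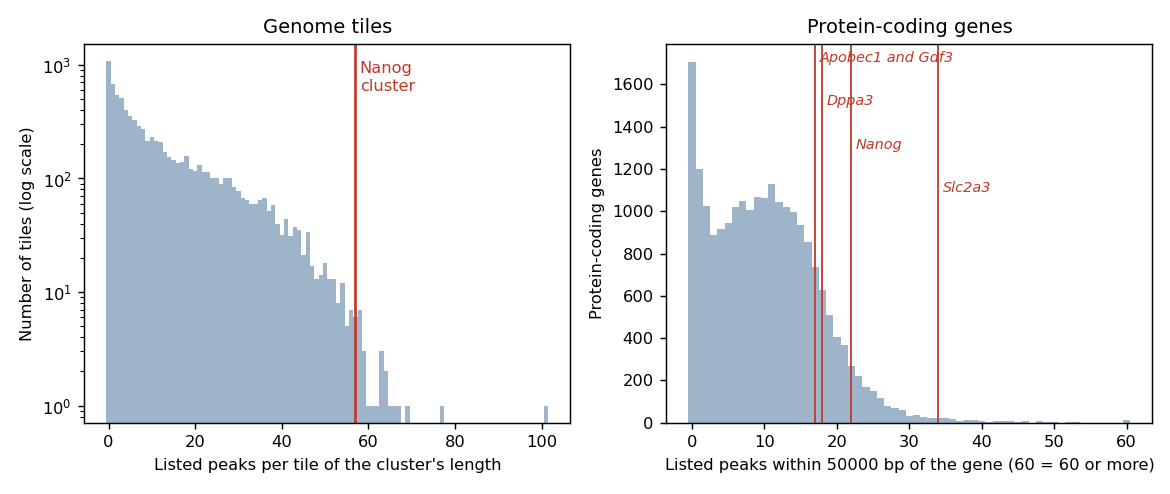
The left plot shows how many of 8406 genome tiles (log scale) held each number of listed peaks, with the cluster's 57 as a red line; the right plot shows how many of 21938 protein-coding genes had each number of listed peaks within 50000 bp, with the members as red lines. The cluster lies in the right tail of the tiles, and the members range from 17 (Apobec1 and Gdf3) to 34 (Slc2a3).

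Other protein-coding genes reach into the extended locus. Mfap5, a gene of an extracellular matrix protein, had 15 listed peaks within 50000 bp and C3ar1, the gene of the complement C3a receptor, had 14. Their annotated 5' ends lay 3833 and 1780 bp from the nearest listed peak. Foxj2, a forkhead factor gene, had 20 and a peak of 1443 bp over its start, which with 64.9% had the highest GC content in the cluster. The second widest peak of the cluster (1668 bp, chr6:122810484-122812151) lay over a start of Gm5112, between Slc2a3 and Foxj2, and held STAT, SOX and TCF matches.

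Peaks were unevenly spaced. The median of the 56 gaps between neighbouring peaks was 3453 bp, against 7796 bp over all listed peaks. They ranged from 209 to 23315 bp, with 10 under 1000 bp and 9 over 10000 bp. Joined across gaps of at most 10000 bp, the members formed 10 runs. Beside the run of 13 in Slc2a3, the run with the most peaks had 11 (chr6:122702141-122743505, 41.4 kb). It began with the peak before Nanog, crossed the Nanog body, and ended at the short start of Slc2a3. The longest stretch without a listed peak (23315 bp) lay on the upstream flank. At the borders, the outermost members lay 5088 and 16906 bp inside the locus, and the next listed peaks 4480 and 6301 bp outside.

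In width the members were close to the list as a whole. Their median width was 402 bp (quartiles 233 and 725, range 152 to 2101), against 415 bp (233 and 708) for all listed peaks. Under 300 bp were 36.8% of members and 35.8% of all, and over 1000 bp were 14% and 12.4%. A transcription start within 1000 bp was present for 12 members (21.1%), against 25.1% of all listed peaks. Peak centres lay in introns for 27 members, between genes for 21, in untranslated exons for 5, in coding exons for 3, and in a non-coding exon for 1. These places were not counted over all listed peaks.

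The promoter-proximal members, some of them near no start of a protein-coding transcript, had a lower GC content than promoter-proximal peaks in general. Their median was 50.8% (n = 12, quartiles 49.5 and 55.7), against 57.4% (51.5 and 62.8) of all promoter-proximal peaks, and 33.3% of them passed 55% GC, against 60.8%. The values ran from 43.0% to 64.9%, the latter at Foxj2, and the Gdf3, Apobec1 and Dppa3 peaks stood at 48.9, 48.9 and 50.0%. The ratio of observed to expected CpG had a median of 0.461, against 0.582. The 45 distal members had a median GC of 48.9%, against 48.6% of all distal peaks. The median soft-masked share of the members was 17.6%, against 10.5% of all listed peaks, while peaks that were masked over more than 50% were fewer (5.26% against 11.2%). Counted by bases, 20.2% of the members' sequence was soft-masked, against 16.8% in all listed peaks and 38.3% in the whole locus. More than 5% repeated 24-base words were found in 21 members, and none in 20. This was not counted over all listed peaks.

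**Figure D3:**
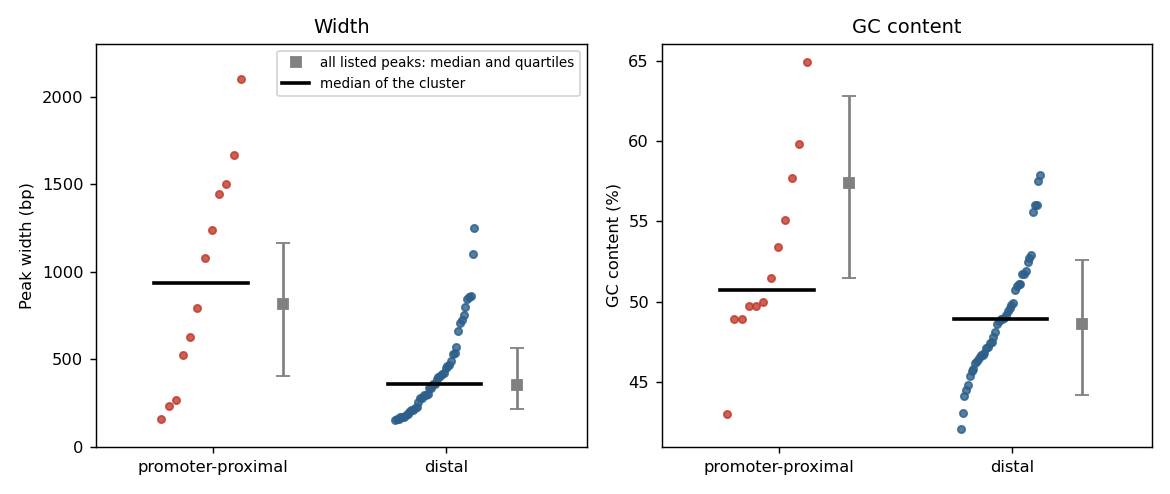
Points are the 12 promoter-proximal and 45 distal peaks of the cluster, with width in bp on the left and GC content in percent on the right; black bars are their medians, and grey squares with bars are the medians and quartiles of all listed peaks of the same kind. The GC median of the promoter-proximal members (50.8%) lies under the lower quartile of that kind (51.5%), while the distal medians are 48.9 and 48.6%.

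9 motifs were searched in the members on both strands. These were the OCT octamer (ATGCAAAT), SOX (CCATTGTC, CCATTGTT, CCTTTGTC or CCTTTGTT), ESRRB (TCAAGGTCA), STAT (TTCCNGGAA), TCF (ATCAAAG), and by name OCT4::SOX2 (up to 2 mismatches), KLF, AP-2 and CTCF (up to 1 mismatch). OCT4::SOX2 contains the octamer and a SOX-like part, so its matches overlap with those. A match describes the letters and not a bound site. At least 1 match stood in 28 members (49.1%), against 42.2% of all listed peaks. Matches to several motifs stood in 7, including the OCT4::SOX2 peak. This was not counted over all listed peaks. Members with a match were wider (median 552 bp) than those without (336 bp).

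Over whole peaks, SOX matches were found in a larger share of members than of all listed peaks. Matches to OCT4::SOX2 and OCT stood in only 1 and 2 members, too few to tell their shares from those of all. The member with OCT4::SOX2 is also 1 of the 2 with OCT. OCT4::SOX2 was found in 1 member (1.75%), against 0.78% of all listed peaks, and OCT in 2 (3.51%), against 2.56%. SOX was found in 14 members (24.6%), against 12.7%. Over the central 200 bp alone, which evens out peak width, SOX was found in 6 members (10.5%), against 6.16% of all, OCT in 1 (1.75%), against 1.16%, and OCT4::SOX2 in 0, against 0.386%. Of the 15 SOX matches 12 lay on the minus strand. SOX matches were spread from the first peak of the locus to Foxj2, and the member nearest to Nanog with one was the peak 4.8 kb upstream.

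KLF, ESRRB, STAT, TCF and AP-2 matches stood in 1 to 4 members each. KLF was found in 3 members (5.26%), against 8.72% of all listed peaks: the Dppa3 intron and a pair of peaks 20.5 and 17.3 kb before Nanog, both with GCCACACCCA. ESRRB and STAT were found in 1 member each, against 2.82% and 2.17% of all. TCF was found in 4 members (7.02%), against 7.89%, and AP-2 in 1, against 2.41%. Over the central 200 bp, KLF was found in the same number of members (5.26%), against 4.24% of all, and ESRRB in 1 (1.75%), against 1.37%, so both shares then lay above those of all listed peaks. TCF, STAT and AP-2 were found in the central 200 bp of 0 members, against 3.45%, 0.875% and 1.17% of all. With so few matches, 1 peak more or less moves each share by 1.75 percentage points.

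CTCF, which organises chromatin loops, was matched in 9 members (15.8%), against 13.0% of all listed peaks, and in the central 200 bp of 6 (10.5%), against 8.09%. Matches on the plus strand were 6 and on the minus strand 3. These sequences were looked at after the count was seen. A plus-strand match lay in Apobec1. Around Nanog, plus-strand matches lay 46.8 kb before the start (CCAGCAGGTGGCAG), 1.5 kb after it in intron 1 (CCAGCAGATGGCAT, 1 mismatch) and 32.6 kb after it in Slc2a3 (CCAGTAGGTGGCAG). A minus-strand match (GCACCAGGTGGCAG, 1 mismatch) lay 79 kb after it, at the end of the run of 13 peaks. A pair of plus-strand matches lay in Foxj2.

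**Figure D4:**
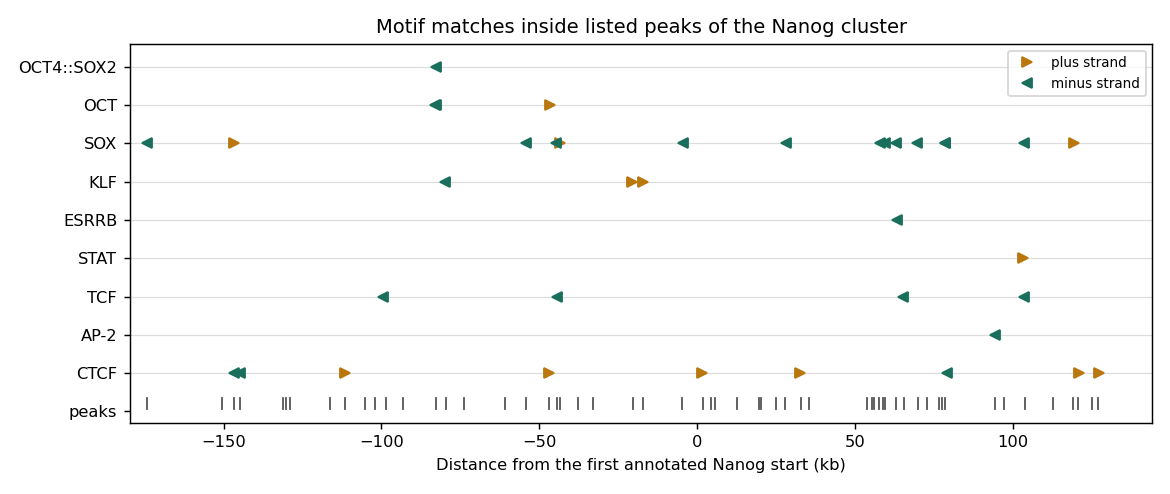
Each arrowhead is 1 motif match inside a listed peak, placed in kb from the first annotated Nanog start, with a row per motif and the 57 peaks as ticks at the bottom; arrowheads to the right are plus-strand and those to the left minus-strand matches (STAT reads alike on both and is drawn as plus). The only OCT4::SOX2 match lies 82.8 kb before Nanog, next to Dppa3, while the 15 SOX and 9 CTCF matches are spread over the locus.

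The members' counts, 17 to 34, overlapped with those of 6 other genes of the pluripotency network. Within 50000 bp there were 19 listed peaks at Pou5f1, which encodes OCT4, 15 at Sox2, 7 at Klf4, 29 at Esrrb, 14 at Tfcp2l1 and 18 at Zfp42, with a median of 16.5. Per 10 kb of window, Nanog (2.05) and Slc2a3 (1.96) stood above all 6, of which Pou5f1 had the highest value (1.81). The other members, Dppa3 (1.73), Gdf3 (1.62) and Apobec1 (1.36), lay below Pou5f1. The windows of Nanog and Slc2a3 shared 17 peaks, so their values are not independent. The place of Nanog also depended on the window. With 25000 bp around the genes, Nanog had 11 peaks, and the shorter genes Pou5f1 and Sox2 had 12 and 11. Per 10 kb, Nanog then lay below Pou5f1 and Sox2 and above the rest of the 6. A listed peak lay over the annotated 5' end of Pou5f1, Sox2, Klf4, Tfcp2l1 and Zfp42. The nearest to that of Esrrb was 4663 bp away, and to that of Nanog 1481 bp. For Esrrb only this outermost start was used. In its window 4 peaks lay within 1000 bp of some annotated start, and whether these are Esrrb starts was not examined. OCT4::SOX2 matches stood in 2 peaks at Pou5f1 and 1 at Zfp42, and in none at the other 4 genes. The whole Nanog cluster, a locus with 57 peaks, held 1, which lay outside the windows of Nanog and Slc2a3. In these cells a Tet-Off promoter drives Pou5f1 and the lentiviral vectors carry OCT4 sequence. The part of either in the peaks listed at Pou5f1 was not tested. These 7 loci differ in length and gene content, and their differences were not tested.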

How the data were processed

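ATAC-seq was performed on 20 libraries of ZHBTc4 ES cells. According to the methods, the authors aligned reads to GRCm38 with STAR 2.6.1c, removed duplicates with Picard, kept 21 chromosomes, called peaks with MACS2 2.1.1.20160309 in paired-end mode and used BEDTools to merge the peaks of the libraries with dox. The deposited list gives chromosome, start and end only (3 columns). It has no depth and no value per library, so no test was run. The methods mention a limit on peak width, and 7 listed peaks exceeded 5000 bp. Whether blacklisted or input regions remain was not tested.

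Genes and transcription starts were taken from GENCODE M21 and promoter windows from RefSeq (GRCm38.p6, 2 of 5 members matched). Any overlap of a peak with the locus counted, and coordinates count from 1. Repeated words are 24-mers found more than once in the genome on either strand. Motif shares are over whole peaks unless given for the central 200 bp. Genes named are the members, protein-coding genes overlapping the locus (1 of them is not reported here) and 6 comparison genes. Peaks named by rule are those nearest to each member's start, the 3 widest and those with an OCT4::SOX2 match, and others were chosen after their values were seen. Members, lists and rules were chosen with earlier results of these data known. Functions were tested on simulated data. Scripts ran under Python 3.11.15 with pandas 2.3.3, numpy 2.4.6 and matplotlib 3.10.9.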

Additional observations from a re-analysis of the deposited data

How the results depend on the processing

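The count of 57 peaks was 53 with 25000 bp and 68 with 100000 bp around the genes, and 36 when peaks under 300 bp were left out, which raised the median width to 597 bp and the median gap to 5613 bp. The median count per member gene of 18 became 11.0 with 25000 bp and 32 with 100000 bp. OCT4::SOX2 matches stood in 4 members when 3 mismatches were allowed (5.5% of all listed peaks) and in 0 members within the central 200 bp. Members with a match to any motif other than OCT4::SOX2 fell from 28 to 15 in the central 200 bp, which was not counted over all listed peaks. Of 62 alternatives, 37 moved a value by less than the limit set for it and 25 moved it further. No paired analysis was possible because values per library were not analysed here. For the same reason no replicate could be left out, and a peak of 1 library counts like a peak of all 16. Consensus matches miss divergent sites, and depth is unknown.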
